A study of Mus musculus with 8 samples.

Results

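Glutamate and GABA, the main excitatory and inhibitory transmitters of the hippocampus, are loaded into vesicles and cleared from the synapse by carrier proteins, and 7 genes of such carriers were compared between the hippocampus of BTBR and B6 mice: Slc1a1, Slc1a2, Slc1a3, Slc1a4, Slc17a7, Slc32a1 and Slc6a11. All non-control array probes bearing one of these gene names were taken, which gave 15 probes of 7 genes out of 41174 probes of 27373 gene names. The rule itself uses no measured value, although earlier results of these data were known when the genes were chosen. All 15 were among the 27982 probes tested, each was well above background on all 8 arrays as the scanner software calls it, and none was saturated or had an outlier flag.

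The BTBR group held 4 mice labeled BTBR T+ Itpr3tf/J and the B6 group 4 wild type C57BL/6J mice, all male, 5 months old and without drug treatment, with whole hippocampus taken from each and 1 mouse per array. One label also gives C57BL/6J as the background of the BTBR mice, whose group was therefore read from their titles. BTBR is an inbred strain used as a model of autism whose causal variants are not known, and it lacks the corpus callosum, so that the comparison is between 2 whole strains. RNA was labeled with Cy3 and read on single-color Agilent arrays on 2 slides, each with 2 mice per strain. Between 56.8% and 71.9% of probes were well above background per array, the lowest share being that of B6 replicate 1. Levels are log2 intensities after normalization, and differences are BTBR minus B6 on the same log2 scale. A probe was called when limma, which weighs a difference by the variation from mouse to mouse, gave a Benjamini-Hochberg adjusted p under 0.05 over all probes tested. With 4 arrays against 4, an exact permutation test cannot give a p under 0.0286.

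Slc1a2 (GLT-1) and Slc1a3 (GLAST) are the sodium-driven carriers by which astrocytes take up synaptic glutamate, and Slc6a11 (GAT3) is the GABA carrier of astrocytes. Slc1a1 (EAAC1) takes up glutamate into neurons, Slc17a7 (VGLUT1) fills the vesicles of hippocampal excitatory terminals with glutamate, and Slc32a1 (VGAT) fills inhibitory vesicles with GABA. The first 3 genes form the glial class below and the next 3 the neuronal class. Slc1a4 (ASCT1), a relative that carries neutral amino acids such as serine and is made by several cell types, was put in neither. In a bulk sample, fewer cells of a type and less RNA per cell cannot be told apart.

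The probes are designed oligos of 60 bases, and those of one gene can read different transcripts. The sequences shown are those of the probes on which the comparison of Slc1a2, Slc1a3 and Slc6a11 turned, with positions on mm9 as the array files give them. Capitals mark stop codons in the forward reading frame that holds the fewest of them, so that a line without capitals has none in that frame over the bases shown. A probe of Slc1a2 assigned to transcript NM_011393 (chr2:102617801-102617860, plus strand) is shown by its first 51 bases, and the neighboring probe assigned to NM_001077514 (chr2:102617706-102617765, plus strand) starts 95 bases before it and is shown whole. Slc1a2 is known to be spliced into forms with different carboxyl ends.
Slc1a2 A_51_P477875: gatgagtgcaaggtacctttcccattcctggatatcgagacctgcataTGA
Slc1a2 A_52_P168496: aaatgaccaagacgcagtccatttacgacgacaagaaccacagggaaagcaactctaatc
The Slc6a11 probes are both assigned to NM_172890 and start 114904 bases apart on the plus strand, at chr6:114084610-114084669 for the first, shown whole, and at chr6:114199514-114199573 for the second, shown by its first 30 bases.
Slc6a11 A_52_P227833: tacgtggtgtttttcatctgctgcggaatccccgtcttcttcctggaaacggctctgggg
Slc6a11 A_51_P271311: acagatccctgatgtctgtcactatagaca
The Slc1a3 probes lie on the minus strand, with the one assigned to the RefSeq transcript NM_148938 at chr15:8584236-8584295. The others are assigned to an Ensembl transcript (chr15:8630573-8630632) and to the cDNA AK046688 (chr15:8636825-8636884), 46337 and 52589 bases from it. The first 30 bases of each are shown, in this order.
Slc1a3 A_51_P268697: gtttacccggtgtgatattttttatactaa
Slc1a3 A_52_P378975: cacttgaggctagaatttTAGtcttgtctt
Slc1a3 A_51_P333324: gctgagtaggggtaattatagaagctacaa
These last 2 accessions were not matched in the RefSeq gene list of GRCm38.p6, whereas those of the other 13 probes were matched to the same gene symbol. The GC content of the 15 probes lay between 28.3% and 55.0%, with a median of 41.7%, against 40.0% over all probes.

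No transporter probe was called. Limma called 0 of 15 probes, with 2 at an unadjusted p under 0.05, where 7.61% of all probes tested were called (3.31% as up-regulated and 4.3% as down-regulated) and 18.5% were below 0.05 before adjustment. The rank product, the test the study used, called 0 of 15 at a pfp of 0.05 or less, where 3.93% of all probes were called. The arrays of the strains did not overlap for 2 of 15 probes, 1 of Slc1a3 and 1 of Slc6a11, beside 14.2% of all probes. The differences ran from -0.29 to 0.40. The size a difference had to reach for a call lay between 0.26 and 1.07, depending on the spread of the probe, so that smaller differences could not be called in this fit.

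**Figure D1:**
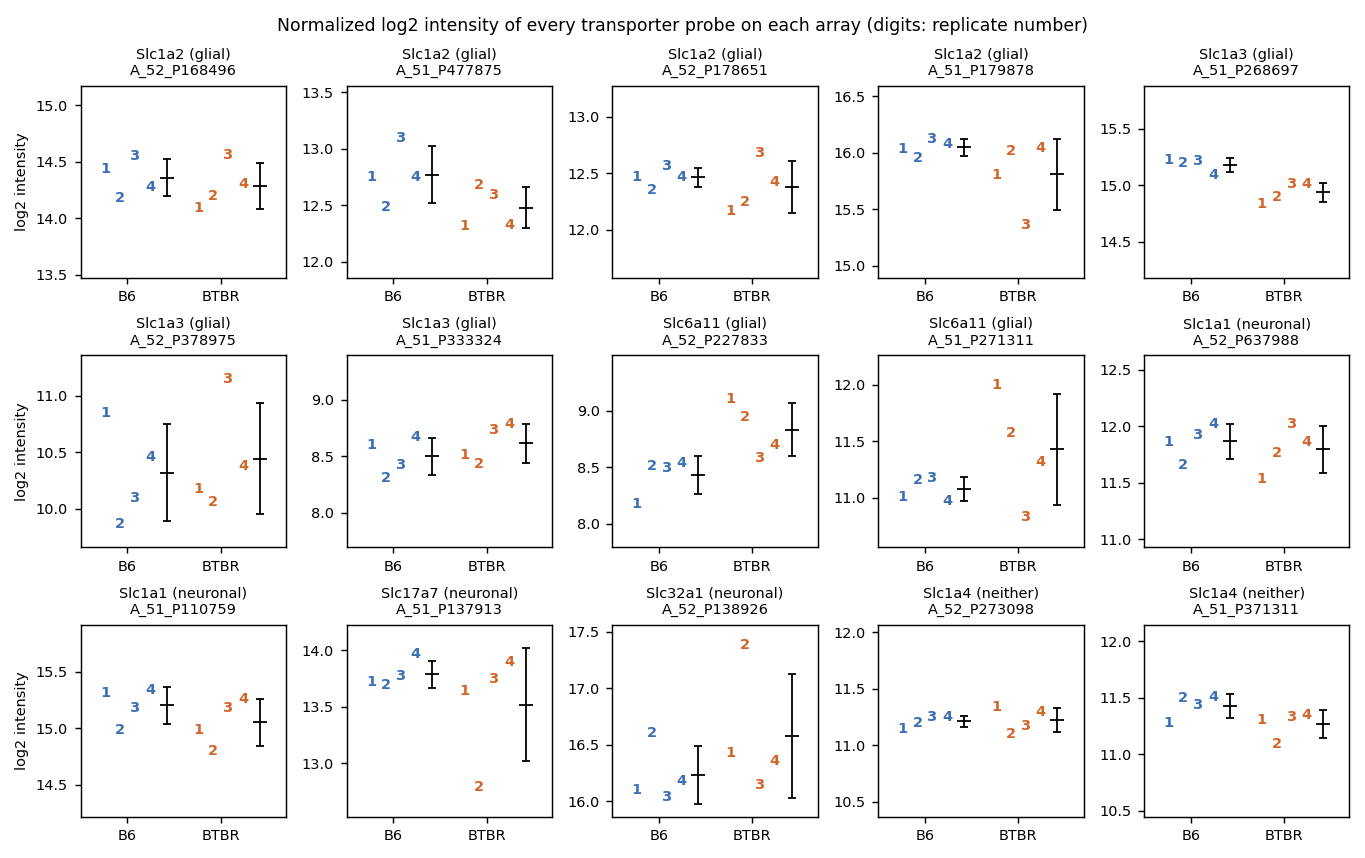
Normalized log2 intensity of the 15 transporter probes on the 8 arrays, 1 panel per probe with the same span of the vertical axis. Digits give the replicate number in B6 (blue) and BTBR (orange), and bars give mean ± SD (n = 4). The strains do not overlap for Slc1a3 A_51_P268697 and Slc6a11 A_52_P227833, and BTBR replicate 2 stands apart for Slc17a7 and Slc32a1.

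Among the glial carriers, Slc1a3 had the difference nearest to a call. Its RefSeq probe measured 15.23, 15.19, 15.21 and 15.09 in B6 replicates 1 to 4 and 14.84, 14.90, 15.01 and 15.01 in BTBR replicates 1 to 4. Every BTBR array lay below every B6 array. Their means were 15.18 ± 0.06 (SD, n = 4) for B6 and 14.94 ± 0.09 (SD, n = 4) for BTBR. The difference was -0.24 (standard error 0.07, 95% interval from -0.39 to -0.09), which corresponds to a BTBR over B6 ratio of 0.845, with a limma adjusted p of 0.064 and an exact permutation p of 0.0286. It was -0.34 on slide 1 and -0.14 on slide 2. Across the alternative settings its adjusted p lay between 0.037 and 0.60, and limma called the probe with the deposited matrix of the authors (-0.25, adjusted p = 0.037) and with trend and robust options (-0.24, adjusted p = 0.048).
The other Slc1a3 probes did not show that order. The probe of the Ensembl transcript measured 10.85, 9.87, 10.10 and 10.46 in B6 and 10.17, 10.06, 11.15 and 10.38 in BTBR mice, a difference of 0.12 (95% interval from -0.50 to 0.75, limma adjusted p = 0.87). The AK046688 probe gave 0.12 as well (95% interval from -0.13 to 0.37, limma adjusted p = 0.66), and 0.30 with the processed signal of the software. Both intervals include 0, and the arrays overlapped at both probes.

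Slc1a2, which clears most hippocampal glutamate, had 4 probes with differences of -0.08, -0.29, -0.08 and -0.24, in order along the chromosome. All 4 were below 0, and none was called. A_52_P168496 and A_52_P178651 were above 0 within slide 2, at 0.02 and 0.04, and also with the 3 arrays highest in thalamus or striatum genes, described below, left out, at 0.01 and 0.05. In the same settings A_51_P477875 gave -0.47 and -0.41, and A_51_P179878 gave -0.40 and -0.38. The NM_011393 probe A_51_P477875 measured 12.75, 12.49, 13.10 and 12.75 in B6 and 12.32, 12.68, 12.59 and 12.33 in BTBR mice, so that the strains overlapped. Its difference of -0.29 had a 95% interval from -0.60 to 0.02 (limma adjusted p = 0.31) and was -0.18 without B6 replicate 3. The NM_001077514 probe next to it, A_52_P168496, gave -0.08 (95% interval from -0.34 to 0.19, limma adjusted p = 0.805). The ratio between these neighbors overlapped between the strains, running from -0.14 to 0.10 around the B6 mean on the B6 arrays and from -0.08 to 0.38 on the BTBR arrays. The probe A_51_P179878 measured 16.03, 15.95, 16.12 and 16.08 in B6 and 15.81, 16.02, 15.36 and 16.04 in BTBR mice. Its difference of -0.24 (95% interval from -0.56 to 0.08, limma adjusted p = 0.43) rested on BTBR replicate 3, since it was -0.09 without that array.

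Slc6a11 had the largest positive difference of the 15 probes. The probe A_52_P227833 measured 8.18, 8.51, 8.49 and 8.54 in B6 and 9.11, 8.95, 8.58 and 8.70 in BTBR mice. The lowest BTBR array lay just above the highest B6 array. The means were 8.43 ± 0.17 (SD, n = 4) and 8.83 ± 0.24 (SD, n = 4), a difference of 0.40 (standard error 0.13, 95% interval from 0.11 to 0.70, limma adjusted p = 0.12, exact permutation p = 0.0286). With the processed signal of the software it was 0.82 (limma adjusted p = 0.066). The brighter probe A_51_P271311 measured 11.01, 11.16, 11.18 and 10.97 in B6 and 11.998, 11.58, 10.83 and 11.32 in BTBR mice. Here the strains overlapped, since BTBR replicate 3 was the lowest of all 8 arrays and BTBR replicate 1 the highest. The difference was 0.35 (95% interval from -0.13 to 0.83, limma adjusted p = 0.45).
The slides gave unlike values for Slc6a11. On slide 1, which held replicates 1 and 2, the differences were 0.68 at A_52_P227833, called within that slide (limma adjusted p = 0.022), and 0.705 at A_51_P271311. On slide 2 they were 0.13 and 0.00, although a limma test of slide 1 against slide 2 gave adjusted p of 0.47 and 0.49. Without BTBR replicate 1 the values were 0.31 and 0.16, and without BTBR replicate 3 they were 0.49 (limma adjusted p = 0.055) and 0.55 (limma adjusted p = 0.068).

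Markers of neighboring brain regions moved with these arrays. A list of 14 thalamus genes, 13 of them well above background on all arrays, had a mean log2 level of 2.36 above the B6 mean in BTBR replicate 1 and 0.36 in BTBR replicate 2, and between -0.12 and 0.23 on the other 6 arrays. Its summed level (sum of linear intensities, divided by 1000) was between 121 and 130.2 in B6 and between 131 and 319 in BTBR mice. Of its 14 genes, 13 were higher in BTBR mice and limma called 0 (7.82% of all genes were called at their brightest probe). For example, and chosen after their values were seen, Synpo2 was at 14.53 in BTBR replicate 1 and between 9.56 and 12.32 elsewhere, and Tcf7l2 at 13.36 and between 9.87 and 10.66. Slc6a11 was highest on the same array. Levels of 10 choroid plexus genes (0 called) were also highest in BTBR replicates 1 and 2, at 1.18 and 1.10 above the B6 mean, and so were those of 14 oligodendrocyte genes (0 called), at 0.32 and 0.52. The part of thalamic or other tissue in the Slc6a11 values was not tested. With B6 replicate 2 and BTBR replicates 1 and 2 left out, the arrays with the highest thalamus or striatum levels, Slc6a11 gave 0.02 at A_51_P271311 (limma adjusted p = 0.98) and 0.24 at A_52_P227833 (limma adjusted p = 0.51), and no transporter probe was called. This setting was chosen after the data were seen and leaves 3 B6 and 2 BTBR arrays.

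**Figure D2:**
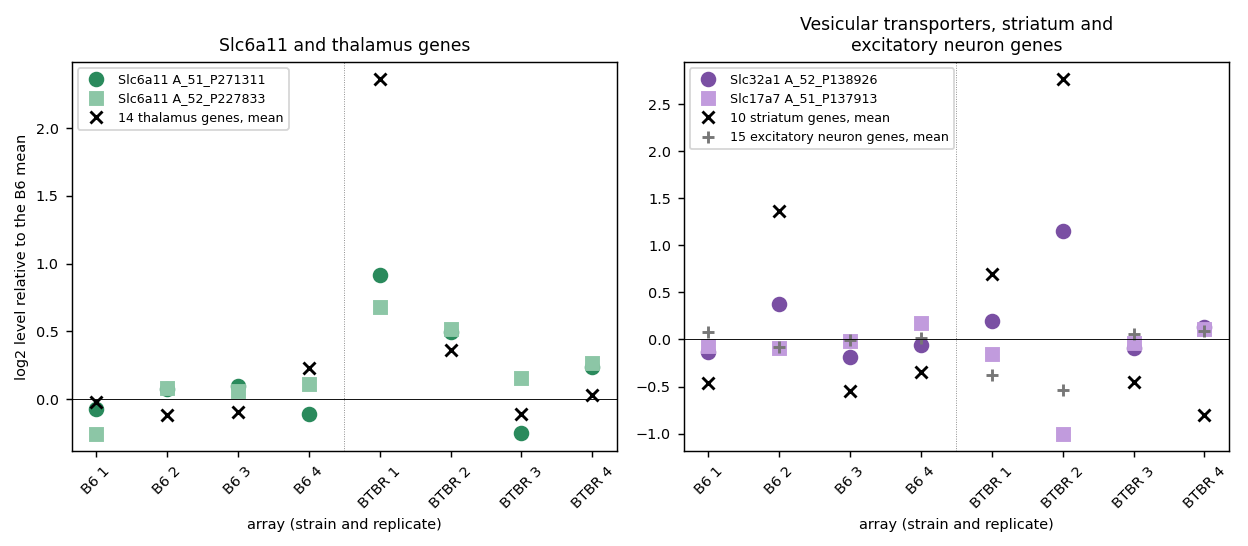
Log2 level on each array relative to the B6 mean, for Slc6a11 with the mean of 14 thalamus genes (left) and for Slc32a1 and Slc17a7 with the means of 10 striatum and 15 excitatory neuron genes (right). The thalamus genes reach 2.36 in BTBR replicate 1 and the striatum genes 2.76 in BTBR replicate 2, the arrays on which Slc6a11 and Slc32a1 are highest.

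The vesicular carriers each rested on 1 array. Slc32a1 (A_52_P138926, chr2:158441324-158441383) measured 16.10, 16.61, 16.04 and 16.18 in B6 and 16.43, 17.38, 16.14 and 16.36 in BTBR mice. BTBR replicate 2 was the highest of the BTBR arrays and B6 replicate 2 the highest of the B6 arrays. The difference was 0.35 (standard error 0.26, 95% interval from -0.23 to 0.93, limma adjusted p = 0.55), and 0.08 without BTBR replicate 2. Slc17a7 (A_51_P137913, chr7:52430841-52430900) measured 13.72, 13.69, 13.77 and 13.97 in B6 and 13.64, 12.79, 13.75 and 13.90 in BTBR mice. BTBR replicate 2 was here the lowest of all arrays. The difference of -0.27 (standard error 0.22, 95% interval from -0.76 to 0.22, limma adjusted p = 0.59) shrank to -0.03 without BTBR replicate 2.
A list of 10 striatum genes, added after the Slc32a1 values were seen, was highest on the same arrays as Slc32a1. Its mean log2 level stood at 2.76 above the B6 mean in BTBR replicate 2, at 1.36 in B6 replicate 2 and at 0.69 in BTBR replicate 1, and between -0.80 and -0.35 on the other 5. Its summed level ran from 32.7 to 157 in B6 and from 23.7 to 374 in BTBR mice on that scale, with 8 of 10 genes well above background on all arrays and 0 called. Excitatory neuron genes (15, with 14 well above background on all arrays) were at -0.54 in BTBR replicate 2 and -0.38 in BTBR replicate 1, and between -0.08 and 0.09 elsewhere, with summed levels from 631 to 726 in B6 and from 505 to 697 in BTBR mice, and 0 were called. Interneuron genes (17) were at 0.10 in BTBR replicate 2, 0.11 in B6 replicate 2 and -0.47 in BTBR replicate 3. They lay between -0.14 and 0.06 on the other arrays. The part of striatal tissue in the Slc32a1 and Slc17a7 values was not tested. With the 3 arrays named above left out, Slc32a1 gave 0.14 (limma adjusted p = 0.63) and Slc17a7 0.01 (limma adjusted p = 0.99).

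The neuronal glutamate carrier Slc1a1 was not called at either probe. The probe A_51_P110759 (chr19:28988332-28988391) measured 15.31, 14.98, 15.18 and 15.34 in B6 and 14.98, 14.79, 15.18 and 15.26 in BTBR mice, a difference of -0.15 (95% interval from -0.42 to 0.12, limma adjusted p = 0.59). It was -0.06 without BTBR replicate 2, -0.04 within slide 2 and -0.06 with the 3 arrays named above left out. The probe A_52_P637988 gave -0.07 (95% interval from -0.34 to 0.19, limma adjusted p = 0.81). The arrays overlapped at both probes.
Slc1a4 was likewise not called. Its probe A_51_P371311 (chr11:20203448-20203507, minus strand) measured 11.28, 11.50, 11.43 and 11.51 in B6 and 11.30, 11.09, 11.33 and 11.35 in BTBR mice, a difference of -0.16 (95% interval from -0.35 to 0.03, limma adjusted p = 0.36). The probe A_52_P273098, which starts 915 bases away, gave 0.01 (95% interval from -0.15 to 0.17, limma adjusted p = 0.95).

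Set side by side, the glial and neuronal classes did not separate. The 9 glial probes had a median difference of -0.08, with 5 below and 4 above 0, and the 4 neuronal probes a median of -0.11, with 3 below and 1 above 0. Over all probes tested the median was 0.01 and 46.7% were below 0. On each array, the median glial minus the median neuronal level, relative to the B6 mean of each probe, was 0.04, 0.04, 0.10 and -0.14 in B6 and -0.05, 0.17, 0.19 and -0.09 in BTBR mice. The strains overlapped, with means of 0.01 ± 0.10 (SD, n = 4) and 0.05 ± 0.14 (SD, n = 4). Within slide 1 the glial and neuronal medians were -0.12 and -0.19, within slide 2 they were 0.02 and -0.04, and with the 3 arrays named above left out 0.02 and 0.01. Each class held differences of both signs: Slc6a11 stood opposite to Slc1a2 in the glial class, and Slc32a1 opposite to Slc17a7 and Slc1a1 in the neuronal class. Split by transmitter, a split made after the values were seen, 8 of 10 probes of the glutamate carriers Slc1a1, Slc1a2, Slc1a3 and Slc17a7 were below 0 (median -0.12), and all 3 probes of the GABA carriers Slc32a1 and Slc6a11 were above 0 (median 0.35). None of these was called. With the 3 arrays named above left out, 4 of 10 probes of the glutamate carriers were below 0, and all 3 GABA carrier values were smaller but above 0.
Astrocyte and neuron genes at large stand beside the classes as follows, where 7.82% of all genes were called. Of 17 astrocyte genes, all well above background on all arrays, 9 had a higher mean in BTBR mice and 8 a lower one, and their median difference was 0.02. Limma called 2 of them, with Gfap, the astrocyte intermediate filament, down-regulated by -1.30 and Ntsr2, an astrocyte receptor, up-regulated by 0.35. The other tested probes of Gfap gave -0.57 and -0.49, and that of Ntsr2 gave 0.50. The summed astrocyte level ran from 1109 to 1152 in B6 and from 1044 to 1188 in BTBR mice on the scale used above. Of 12 pan-neuronal genes 8 were higher, with a median of 0.03, and Nefl (-0.65) was the 1 called. Of 17 interneuron genes 10 were higher, with a median of 0.13, and Cort (-2.22), a neuropeptide, was the 1 called. Of the 15 excitatory neuron genes 4 were higher and 11 lower, with a median of -0.27 and 0 called.

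**Figure D3:**
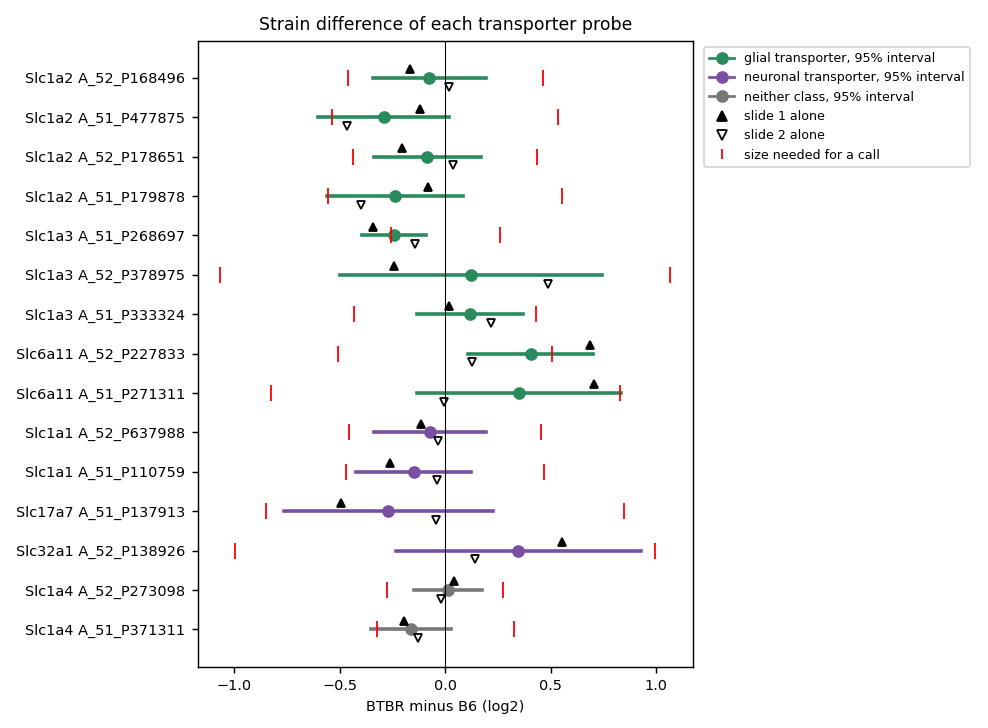
BTBR minus B6 difference (log2) of each transporter probe with its 95% interval, colored by class, and the difference on each slide alone. Red ticks mark the size that would have been called, between 0.26 and 1.07, and no round point, the difference over both slides, lies outside its ticks.

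The 5 genes with several probes gave 12 pairs, and in 0 of 12 did the ratio between the probes separate the strains. The largest shift in such a ratio was -0.37, between the RefSeq and Ensembl probes of Slc1a3, where B6 arrays ran from -0.49 to 0.46 around their mean and BTBR arrays from -1.01 to -0.03. The overlap was narrower for the RefSeq and AK046688 probes of Slc1a3, shifted by -0.36 with B6 arrays from -0.26 to 0.21 and BTBR arrays from -0.46 to -0.22, and for the Slc1a4 probes, shifted by 0.17 with B6 arrays from -0.08 to 0.08 and BTBR arrays from 0.06 to 0.25.

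The carriers work in a cycle with other transporters and enzymes, and 34 further genes of this pathway were tested at their brightest probe. Limma called 1 of them, 1 up-regulated and 0 down-regulated, where 7.82% of all genes were called (3.49% as up-regulated and 4.33% as down-regulated). In all, 25 were above 0 and 9 below, where 9742 of all genes tested were above 0 and 8657 below. The median difference was 0.16 against 0.01 over all genes. With the 3 arrays named above left out some of the 34 changed sign, more of them to below 0 than above.
The gene called was Slc1a5 (ASCT2, NM_009201), the neutral amino acid carrier closest in kind to Slc1a4, which exchanges glutamine. It measured 9.58, 9.99, 9.75 and 9.46 in B6 and 11.01, 11.26, 10.78 and 10.86 in BTBR mice. All BTBR arrays lay above all B6 arrays. The means were 9.69 ± 0.23 (SD, n = 4) and 10.97 ± 0.21 (SD, n = 4), a difference of 1.28 (standard error 0.14, 95% interval from 0.97 to 1.59, limma adjusted p = 4.5e-04). It was 1.35 on slide 1, 1.22 on slide 2 and 1.22 with the 3 arrays named above left out, each called.

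Of 10 other plasma membrane carriers 7 were higher, and Slc1a7 was not tested because of the filter on dim probes. The genes named from here to the end of the paragraph were chosen after their values were seen. Slc6a13 (GAT2), a GABA carrier of the meninges, gave 1.02 (limma adjusted p = 0.22) and was highest in BTBR replicate 4 at 12.78 and, within B6, in replicate 3 at 11.87, as were 13 meningeal genes with mean levels of 0.84 and 0.64 above the B6 mean. These genes, all well above background on all arrays, had summed levels from 24.9 to 66.4 in B6 and from 34.7 to 64.7 in BTBR mice, with 0 called, and their part in the Slc6a13 value was not tested. The Slc6a13 difference was larger, at 1.48 (limma adjusted p = 0.18), with the 3 arrays named above left out. Slc17a6 (VGLUT2), the vesicular glutamate carrier typical of the thalamus, was at 14.61 in BTBR replicate 1, the array high in thalamus genes, and between 10.67 and 12.45 on the other 7. Its difference of 0.91 had a 95% interval from -0.71 to 2.54 (limma adjusted p = 0.58), and it was 0.23 with those 3 arrays left out.
Of 6 other vesicular and mitochondrial carriers 3 were higher, and of 12 metabolic enzymes 9 were higher, with 0 called in either list. Glul, the glutamine synthetase of astrocytes, gave -0.02 (95% interval from -0.16 to 0.13). Gad1 and Gad2, which make GABA, gave 0.26 and 0.42 (limma adjusted p = 0.53 and 0.52), with both highest in BTBR replicate 2 as Slc32a1 was, and 0.08 and 0.11 with the 3 arrays named above left out. Gls2, a glutaminase, gave 0.31 (limma adjusted p = 0.066) without overlap of the strains.
All 6 partners of glutamate uptake were higher, from 0.02 to 0.54, and 0 were called. Their mean level was highest in BTBR replicate 1, at 0.53 above the B6 mean against 0.06 to 0.21 on the other BTBR arrays, and with the 3 arrays named above left out Atp1b2 gave -0.16 and Slc9a3r1 -0.05. Kcnj10, the potassium channel by which astrocytes clear potassium, measured 14.67, 14.49, 14.68 and 14.56 in B6 and 15.55, 15.28, 14.88 and 14.86 in BTBR mice. The strains did not overlap, and the difference was 0.54 (95% interval from 0.20 to 0.89, limma adjusted p = 0.0696). It was called with the slide as a block (adjusted p = 0.041), with the processed signal of the software (0.52, adjusted p = 0.037), within slide 1 (0.84, adjusted p = 0.008), without BTBR replicate 3 (0.63, adjusted p = 0.041) and without BTBR replicate 4 (0.64, adjusted p = 0.042), and with the 3 arrays named above left out it was 0.23 (limma adjusted p = 0.27).

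**Figure D4:**
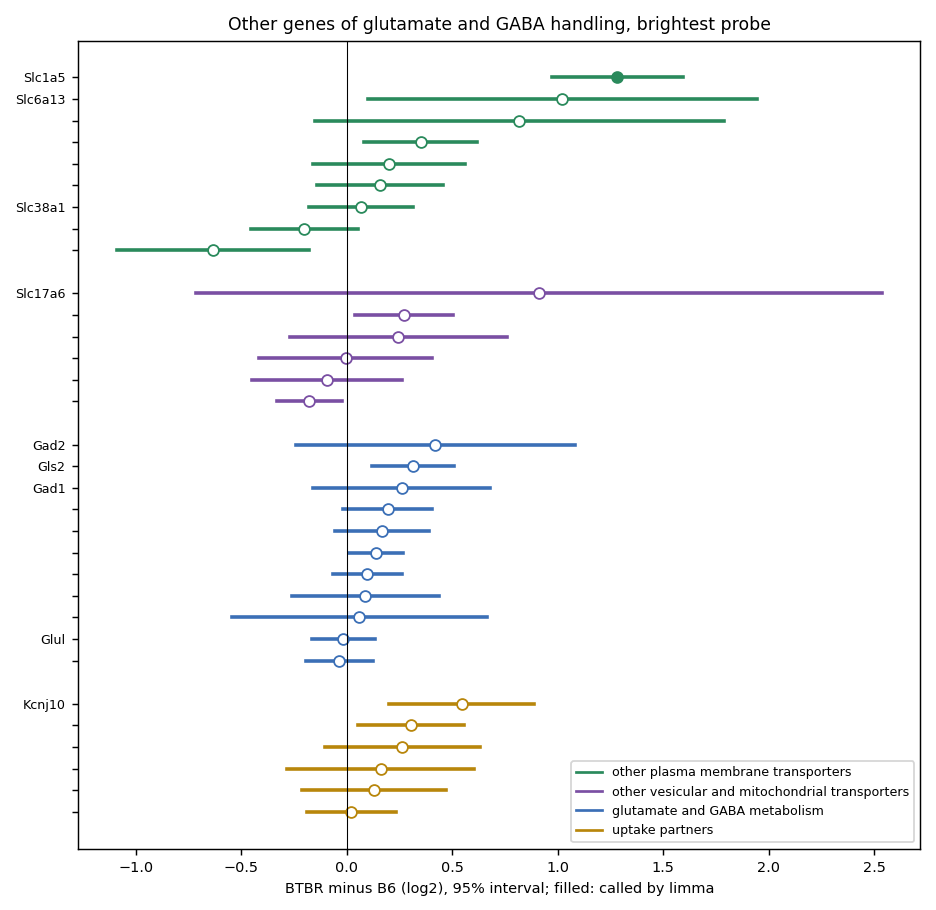
BTBR minus B6 difference (log2) with 95% interval for 32 of the 34 other genes of glutamate and GABA handling at their brightest probe, in 4 lists, with names for 9 of the genes named in the text. The filled point marks Slc1a5, the 1 gene called, at 1.28.

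Other gene names followed the transporters across the 8 arrays. For the brightest probe of each gene, the gene with the highest Pearson r among probes above background on all arrays was Rwdd1 for Slc1a2 (r = 0.991), Cbx3 for Slc1a3 (r = 0.989), Rnf152 for Slc6a11 (r = 0.990), Cttnbp2 for Slc1a1 (r = 0.978), Sez6l for Slc17a7 (r = 0.989), Rasgrp2 for Slc32a1 (r = 0.988) and Top3a for Slc1a4 (r = 0.962). With 8 arrays, the highest of very many such values is high for any probe, and the arrays share strain and slide, so that these names are given as a description only.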

How the data were processed

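Intensity values were deposited by the authors as scanner output, whose headers name Feature Extraction 10.7.3.1 (version 9.1 in the submitters' processing notes), unscaled between arrays, with a processed signal that the software background subtracted and detrended and with spot flags. The authors also deposited a matrix of log2 values, for which they used Agi4x44PreProcess with its defaults, quantile normalized, and summarized replicate spots by their median.
Here, mean intensity less local background was floored at 0.5, raised by an offset of 50, put on the log2 scale and quantile normalized. Of 41174 probes, 154 with an outlier flag and those not well above background on at least 75% of the arrays of a strain were left out. Limma 3.58.1 in R 4.3.3 fitted strain alone, and the 95% intervals come from that fit. The rank product used 100 permutations of probes within arrays. Figures were drawn with Python 3.11.15 and matplotlib 3.10.9. Both tests were tried on simulated data, with changes far larger than the transporter differences and independent noise on each probe. That trial does not show how they perform on differences of the size reported here.
Gene lists were written from general knowledge, and a listed gene was read at its brightest tested probe. The members and lists were chosen with earlier results of these data known. Genes were named by a rule: all members, the called genes of the pathway lists (at most 4 a list), at most 3 called genes of a marker list, and the gene most alike to each member. Other genes named in the text were chosen after their values were seen. Microglia, oligodendrocyte and choroid plexus lists are given in the closing section. Some single genes of the lists are counted but not reported by name here. Array number limits the precision. The labels call each array a mouse. Alternatives tried were the software's processed signal scaled to the 75th percentile, normexp, the deposited matrix, median centring, other filters, each array left out, replicate or slide as a block, each slide alone, trend and robust options, and a gene's median probe value. Mice were not treated as paired by replicate number. Deviations of same-numbered arrays correlated at -0.14, 0.51, -0.10 and 0.39, and those of other array pairs between -0.50 and 0.37. These values do not settle whether the numbers pair the mice. Array profiles correlated between 0.976 and 0.996 across probes, and no arrays held the same values.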

Additional observations from a re-analysis of the deposited data

Results flagged for a closer look

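Of 30 groups of 4 arrays checked (15 probes in 2 strains), 2 had 1 array far from the others, and chance flags about 1 in 20. For Slc6a11 A_52_P227833, B6 replicate 1 measured 8.18 against 8.49 to 8.54 on the other B6 arrays, a gap of 0.873 of the range. That array had the lowest share of probes well above background, 56.8%, and without it the strain difference was 0.32 (limma adjusted p = 0.26). For Slc1a4 A_51_P371311, BTBR replicate 2 measured 11.09 against 11.30 to 11.35, a gap of 0.831 of the range, and the difference was -0.10 without it.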

How the results depend on the processing

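Limma called 0 of the 15 transporter probes under most settings, and 1 with the deposited matrix, 1 within slide 1 and 1 with trend and robust options; with 1 array left out it called 0 to 0. The rank product called 0 under each setting it was run in. The median difference of the glial probes ran from -0.12 to -0.01 and that of the neuronal probes from -0.18 to -0.04 with 1 array left out, and they were -0.13 and -0.17 with median centring. Probes without overlap numbered 1 with the processed signal and 2 to 3 with 1 array left out (3 without B6 replicate 1, B6 replicate 2 or BTBR replicate 3). Pathway genes called numbered 2 with the processed signal, 2 with the slide as a block, 3 within slide 1 and 4 with the median level over a gene's tested probes (which can fall on different probes in the strains), and 1 to 2 with 1 array left out (2 without B6 replicate 3, BTBR replicate 3 or BTBR replicate 4). Slc1a5 was called under every setting. Of 315 single probe values over 21 settings, 16 changed sign. Slc1a4 A_52_P273098 gave -0.0234 with median centring and -0.0196 within slide 2, and -0.0252 to 0.0543 with 1 array left out. Slc1a3 A_52_P378975 gave -0.24 within slide 1 and -0.11 to 0.30 with 1 array left out, and Slc1a1 A_52_P637988 -0.15 to 0.0143. Within slide 2, Slc6a11 A_51_P271311 gave -0.00434, Slc1a2 A_52_P168496 0.0162 and Slc1a2 A_52_P178651 0.0351. With B6 replicate 2 and BTBR replicates 1 and 2 left out, Slc17a7 gave 0.00555, Slc1a2 A_52_P168496 0.00883, Slc1a2 A_52_P178651 0.0527 and Slc1a1 A_52_P637988 0.00585. The cause was not tested. With the replicate block limma called 0 transporter probes and 1 pathway gene, as without it. Median centring moved the down-regulated share of all limma calls from 56.6% to 63.1%.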

Other observations

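Of 12 microglia genes, all well above background on all arrays, 10 were lower in BTBR mice, with a median of -0.23. Limma called 1 up-regulated, Cx3cr1 (1.41), and 5 down-regulated, where 3.49% and 4.33% of all genes were called in these directions, and of the 5 C1qb (-1.01) and Tyrobp (-0.74) had the largest differences. C1qb is a subunit of complement C1q and Tyrobp an adaptor of microglial receptors. Of 14 oligodendrocyte genes 12 were higher, with a median of 0.10, and 0 were called by limma. Their mean level was highest in BTBR replicates 2 and 1, at 0.52 and 0.32 above the B6 mean. Of 10 choroid plexus genes 8 were higher, with a median of 0.37 and 0 called by limma, and their mean level was 1.18 and 1.10 above the B6 mean in BTBR replicates 1 and 2 and -0.62 and -0.64 in replicates 3 and 4.
Within the pathway, Slc38a1, a glutamine carrier of neurons, gave 1.07 at the dimmer probe A_51_P489788, called by limma (adjusted p = 7.6e-05), and 0.07 at its brightest, which was not called. Its other tested probes gave 0.31, 0.32 and 0.15 (limma adjusted p = 0.17, 0.11 and 0.63). This gene was named after its values were seen.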
